A study of Triticum aestivum with 3 samples.

Results

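The transcripts described here are those of a wheat (Triticum aestivum) leaf degradome whose identifiers start with EPlTAEG. They were chosen by identifier alone and number 960 of the 7483 transcripts listed. They stand in 1560 of 12450 listed pairs of a small RNA and a transcript, and 44 of 1233 small RNAs are paired with them. The other transcripts carry Traes identifiers (5275), which name gene models by chromosome arm, or identifiers such as Novel01137 (1248), called unnamed transcripts here. The labels, tables and gene table used here give no annotation, position or sequence for any EPlTAEG identifier, so no gene name or role is given to them. Leaves of wheat seedlings were sampled after 2 days in 3 treatments, dithiothreitol with tauroursodeoxycholic acid (DTT+TUDCA), dithiothreitol alone (DTT) and a control. Each treatment had 3 libraries from independent biological replicates per the series' design text. Dithiothreitol is a reductant that breaks disulphide bonds and so disturbs protein folding in the endoplasmic reticulum, and tauroursodeoxycholic acid is a bile acid that acts as a chemical chaperone. No cultivar, dose or plant number is given in the labels used here.

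A degradome library reads RNA fragments from their 5′ end where that end bears a monophosphate. Slicing of a transcript by an Argonaute protein guided by a small RNA leaves such an end, and so do other routes of RNA decay, so a listed pair is a candidate and not a proven target. Several wheat small RNA families numbered from miR1117 to miR1139 are known to overlap miniature inverted-repeat transposable elements, short repeats with many near-identical copies in grass genomes, and the rice families miR437, miR812 and miR1862 are repeat-associated as well. The 2 arms of such a hairpin are complementary to each other, so a small RNA from 1 arm can pair with any transcript that holds a copy of the repeat, its own precursor included. Whether EPlTAEG transcripts include precursors or repeat copies cannot be told from the tables.

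The libraries held 12544241 to 13006162 reads in DTT+TUDCA, 12525611 to 12895432 in DTT and 11253643 to 12548651 in the control, as recovered from the deposited scaling. Control replicate 3 was the shallowest. Fewer cut fragments and less transcript cannot be told apart in these data, because no transcript abundance is given.

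Reads on EPlTAEG transcripts were few and shared over many transcripts. Over all 9 libraries, 727 of the 1560 EPlTAEG lines (46.6%) held 1 read, against 30.7% of Traes lines and 39.3% of unnamed lines. The median EPlTAEG line held 2 reads and the largest 280, and 110 lines held 10 or more. Each line carries a raw read count and a second number that the tables call normalized, which never exceeds the raw count. This raw over normalized ratio was whole, within 0.001, in 3054 of 3103 EPlTAEG values with reads (98.4%), as it would be if each read were shared over the places it maps to. It is used below as a measure of multi-mapping, and the normalized number is called shared reads, although no header states how it was made. Among sets of lines of 1 small RNA with identical counts, a whole ratio and 5 or more reads, the number of listed lines never exceeded the ratio, in 146 of 146 sets with EPlTAEG lines and 1861 of 1861 over all transcripts. With sets of fewer reads included, this held in 93.9% of 608 sets with EPlTAEG lines. At 5 or more reads, in 65.9% of all such sets, and in 15.8% of those with EPlTAEG lines, it equalled the ratio. The other sets listed fewer lines than the ratio. Their further places may be unlisted or may stand on lines whose counts differ, which was not tested.

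The ratio was higher on EPlTAEG transcripts than on the others. Its median per line was 7.0 (quartiles 3.09 and 10), against 3.0 for Traes and 2.0 for unnamed lines. A ratio of 10, the highest value in the tables, was found for 642 EPlTAEG lines (41.2%), 112 Traes lines (1.26%) and 22 unnamed lines (1.09%). No source says whether 10 is an upper limit set in processing. Of 146 sets of EPlTAEG lines of 1 small RNA and signal at a ratio of 10, 11 listed more than 10 transcripts. Only 2 of the 11 held 10 or more reads on a line, and there the lines differed in count. They held 41 to 53 reads for tae-MIR1135-p3_1ss21TC and 17 to 22 for tae-miR1127b-3p_1ss12TC. The others held 1 read per line, which need not be the same read. Whether a ratio of 10 can stand for more places was not tested. If it can, medians and ratios of sums that include it may be too low. Reads that fell on a single place, with a ratio of 1, made up 87 EPlTAEG lines (5.58%), 14.8% of Traes lines and 42.2% of unnamed lines. With lines of similar counts merged and counted once, the ratio of summed reads lay between 2.93 and 3.67 in each library for EPlTAEG. It lay between 1.97 and 2.13 for Traes and between 1.25 and 1.37 for unnamed transcripts. The log2 difference between EPlTAEG and Traes was 0.69 ± 0.108 (mean ± SD over 9 libraries), was above 0 in 9 of 9 libraries, and had a two-sided exact sign-flip p of 0.0039, the smallest that 9 libraries allow. The libraries were mapped to the same transcripts, so they show that the difference recurs from library to library, not that it was found in independent transcript sets. The 2 strongest EPlTAEG small RNA signals, both of MIR2592bj, carried part of it, as the difference was 0.48 without them (exact p = 0.0039).

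**Figure D1:**
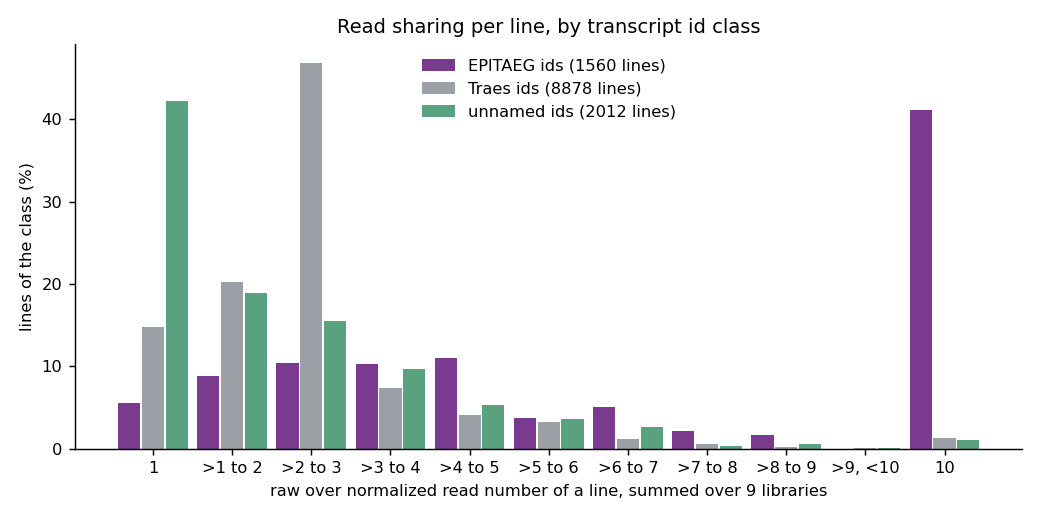
Share of lines (%) by raw over normalized read number, for the 1560 EPlTAEG, 8878 Traes and 2012 unnamed lines. The EPlTAEG bar at 10 stands at 41.2%, where the Traes and unnamed bars stand at 1.26% and 1.09%, while most Traes lines lie at 3 or below.

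Small RNAs paired with EPlTAEG transcripts came most often from the families numbered miR1117 to miR1139, nearly all under wheat names. This range gave 18 of the 44 small RNAs, 877 of the 1560 pairs (56.2%) and 37.0% of the shared reads on EPlTAEG transcripts, against 1.41% of Traes pairs and 12.3% of unnamed pairs. Per library, it held between 24.4% and 48.4% of the shared reads on EPlTAEG transcripts and between 0.112% and 0.492% of those on Traes transcripts, higher in 9 of 9 libraries (exact sign-flip p = 0.0039). Against unnamed transcripts, where it held between 11.5% and 24.7%, it was also higher in 9 of 9 libraries (exact sign-flip p = 0.0039). The conserved families, such as miR156, miR160 and miR166, which target transcription factors in many plants, were rare on EPlTAEG transcripts. They gave 6 EPlTAEG pairs (0.385%) from 5 small RNAs, and 42.4% of Traes pairs. Of their 41.1 shared reads on EPlTAEG transcripts, 38.3 came from 1 pair, bdi-miR169h-3p on EPlTAEG00000010006, so their share there rests mostly on this pair. Per library, conserved families held between 0.291% and 5.70% of the shared reads on EPlTAEG transcripts. On Traes transcripts they held between 85.6% and 92.0%. The EPlTAEG share was lower in 9 of 9 libraries (exact sign-flip p = 0.0039). Against unnamed transcripts, where conserved families held between 4.20% and 8.36%, the ranges overlapped and the difference was small, at -3.69 ± 2.22 percentage points (mean ± SD, EPlTAEG minus unnamed), though lower in 9 of 9 libraries (exact sign-flip p = 0.0039). A low share of conserved families was thus found on both of these classes. These 4 tests were added after the shares had been seen, and their p-values adjusted over the 4 equal the raw ones. The listed pairs are the same for all 9 libraries. The tests thus show that the shares recur from library to library, not that they were found in independent transcript sets. Most pairs of this range carry hairpin-arm names (MIR with p3 or p5), and such names made up 79.7% of EPlTAEG pairs and 47.0% of Traes pairs. Of the remaining lists, miR9650 to miR9799 gave 139 pairs from 1 small RNA, predicted small RNAs named PC gave 68 pairs from 3, and miR5368, miR6173 and miR6300 gave 0.

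The 5 small RNAs with the most EPlTAEG transcripts accounted for 796 pairs (51.0%) and 646 transcripts (67.3%). They were tae-miR1127b-3p_1ss12TC with 195 EPlTAEG transcripts of 208 in all, tae-MIR5175-p3 with 171 of 193, tae-MIR1128-p3 with 152 of 164, osa-MIR1862d-p3 with 139 of 181 and tae-MIR9668-p5_1ss23AG with 139 of 147. For 27 of the 44 small RNAs most of their listed transcripts were EPlTAEG transcripts, and for 1, tae-MIR1133-p5_1ss13GT, all were. At the other end, 7 small RNAs were paired with 1 EPlTAEG transcript each.

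**Figure D2:**
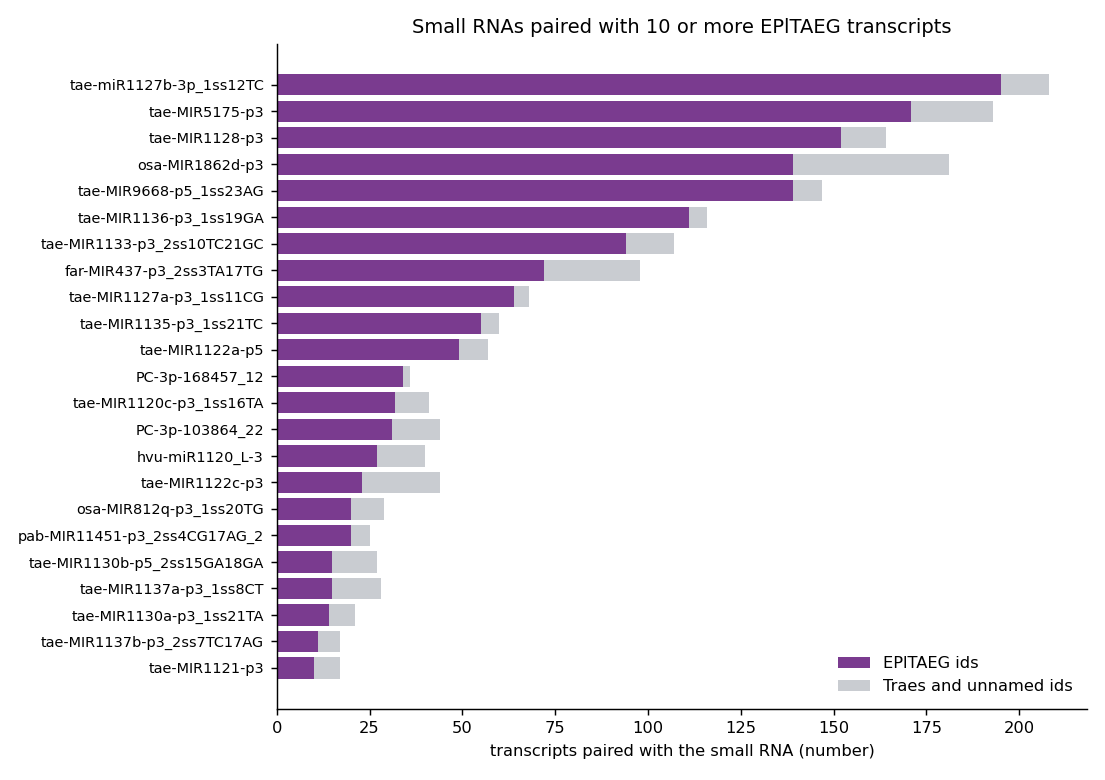
Number of transcripts paired with each of the 23 small RNAs that have 10 or more EPlTAEG transcripts, with EPlTAEG transcripts in purple and Traes and unnamed transcripts in grey. The bar of tae-miR1127b-3p_1ss12TC is the longest, with 195 of 208 transcripts in purple.

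Some of these lists overlapped. tae-miR1127b-3p_1ss12TC and tae-MIR5175-p3 shared 64 transcripts, 32.8% and 37.4% of their lists. tae-MIR9668-p5_1ss23AG shared 44 with the first (31.7% and 22.6%) and 39 with the second (28.1% and 22.8%). tae-MIR1128-p3 shared 11 and 10 with these, 3 with MIR9668 and 0 with osa-MIR1862d-p3. All 3 lists that overlap most are small RNAs of different family numbers, and no sequence was at hand to compare them.

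Most EPlTAEG transcripts were paired with a single small RNA (611 of 960, 63.6%), 205 with 2 and 144 with 3 or more. On its best line, a transcript held 1 read in 429 cases (44.7%), 2 to 9 reads in 443 and 10 or more in 88. The transcript paired with the most small RNAs was EPlTAEG00000006971, with 8. Its best line, that of osa-MIR1862d-p3, held 7 reads, 3, 2 and 0 in DTT+TUDCA, 0, 0 and 0 in DTT and 2, 0 and 0 in the control. All 8 lines of this transcript had a ratio of 1, the value of reads that map to 1 place. The lines of PC-3p-177259_11 and tae-MIR1122c-p3 held identical counts of 5 reads there.

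EPlTAEG00000000770 was paired with 6 small RNAs. osa-MIR1862d-p3 had 5, 2 and 1 reads on it in DTT+TUDCA, 0, 2 and 7 in DTT and 0, 4 and 2 in the control, at a ratio of 3.09. tae-MIR1133-p3_2ss10TC21GC had 2, 4 and 1 reads in DTT+TUDCA, 6, 1 and 1 in DTT and 0, 3 and 3 in the control. pab-MIR11451-p3_2ss4CG17AG_2 had 0, 1 and 4 reads in DTT+TUDCA, 0, 1 and 2 in DTT and 0, 1 and 2 in the control, at a ratio of 1. The treatments overlapped for each of these. EPlTAEG00000005357, also with 6 small RNAs, held at most 8 reads on a line, and its lines of far-MIR437-p3_2ss3TA17TG and tae-MIR5175-p3 had identical counts, 2, 0 and 2 in DTT+TUDCA, 4, 0 and 0 in DTT and 0 in each control library. EPlTAEG00000006997 was paired with 6 as well.

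Lines of 1 small RNA or of 1 transcript with similar counts, which may hold the same reads, were merged into signals. A signal is a set of lines of which the line with the most reads is counted. Whether merged lines hold the same reads could not be checked. Some merged lines of 1 read differed in ratio, such as 10 and 4 in a MIR1135 signal, so signals only approximate distinct reads. Of 4574 signals, 400 (8.75%) held an EPlTAEG transcript, and they carried 2118 of 55312 signal reads (3.83%). EPlTAEG transcripts alone made up 296 of the 400, while 49 also held a Traes and 73 an unnamed transcript. A signal held 2 transcripts in the median and at most 30. Reads were concentrated: the 2 strongest signals carried 473 reads (22.3%) and the 10 strongest 800 (37.8%), and 34 signals held 10 reads or more. Of the 400, 282 (70.5%) held 3 reads or fewer, against 61.6% of all signals. Reads came from a single library in 188 signals (47.0%), from all 3 treatments in 68 and from all 9 libraries in 4.

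The strongest EPlTAEG signal was that of mtr-MIR2592bj-p3_2ss10TC17AT, with 280 reads. It was listed on 9 EPlTAEG transcripts with identical counts at a ratio of 10, so at least 1 more place shares its reads. The next was the other arm, mtr-MIR2592bj-p5_1ss12TC, with 193 reads on 3 EPlTAEG transcripts and the Traes transcript Traes_3DL_B80EC2366, at a ratio of 4.71. The arms shared 0 EPlTAEG transcripts. MIR2592 was named in the barrel medic, Medicago truncatula, and no source used here shows that wheat has it. The signal of bdi-miR169h-3p held 77 reads on EPlTAEG00000010006 and a Traes transcript, that of pab-MIR11451-p3_2ss4CG17AG_2 67 reads on 4 EPlTAEG transcripts and 1 unnamed transcript, and that of tae-MIR1135-p3_1ss21TC 53 reads on the best of 20 EPlTAEG transcripts. The other 5 of the 10 strongest held 24 to 29 reads: aly-MIR862-p3_2ss11CT17TC on 6 transcripts, tae-MIR1133-p3_2ss10TC21GC on 4, osa-MIR1862d-p3 on 2, and tae-MIR5175-p3 and tae-miR1127b-3p_1ss12TC on 3 each. MIR5175 and miR1127b were both counted on EPlTAEG00000006818, as separate signals. MIR5175 had 3, 4 and 3 reads there in DTT+TUDCA, 6, 0 and 2 in DTT and 0, 4 and 2 in the control. miR1127b had 4, 4 and 0 in DTT+TUDCA, 5, 1 and 5 in DTT and 1, 2 and 2 in the control, and the treatments overlapped for both. With 10 or more reads, the highest ratio, 10, was that of MIR2592bj-p3, MIR1135 and a tae-miR1127b-3p_1ss12TC signal of 22 reads on 11 transcripts. The last of these had 3, 2 and 1 reads in DTT+TUDCA, 1, 0 and 2 in DTT and 7, 6 and 0 in the control. The lowest, 1, was that of PC-3p-103864_22 on EPlTAEG00000009002 (12 reads), osa-MIR1862d-p3 on EPlTAEG00000007809 (11 reads) and pab-MIR11451-p3_2ss4CG17AG_2 on EPlTAEG00000000770 (11 reads).

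**Figure D3:**
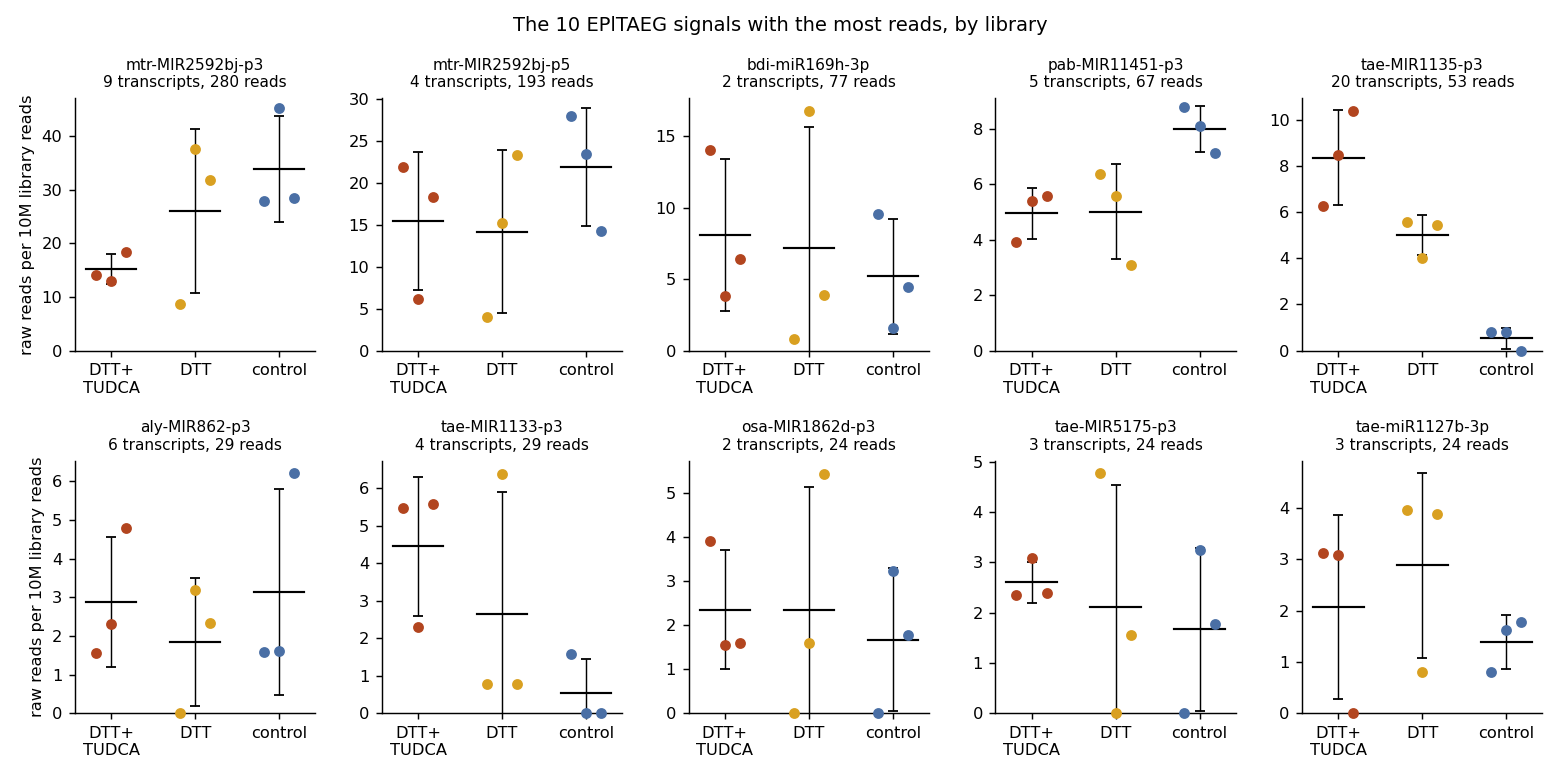
Raw reads per 10M library reads of the 10 strongest EPlTAEG signals (small RNA names without their suffix), 1 point per library, in DTT+TUDCA, DTT and control from left to right; lines show the mean and error bars the SD of 3 libraries. The DTT+TUDCA points lie below every control point for MIR2592bj-p3 and above every control point for MIR1135, while the groups overlap for MIR2592bj-p5 and miR169h-3p.

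DTT+TUDCA was compared with the control to ask which degradome signals differ when the chaperone is given with the reductant. 2 EPlTAEG signals passed the test: tae-MIR1135-p3_1ss21TC was higher and mtr-MIR2592bj-p3_2ss10TC17AT was lower. Raw counts of all signals were tested with edgeR's quasi-likelihood method with Benjamini-Hochberg adjustment over all signals tested, called at an adjusted p below 0.05. Only 6 of the 400 EPlTAEG signals had enough reads to be tested. Of all 166 signals tested, 16 were called (9.64%), 14 higher (8.43%) and 2 lower (1.2%), and 38 did not overlap between treatments (22.9%), among them 3 of the 6 EPlTAEG signals. The MIR1135 line reached the minimum count in DTT+TUDCA alone, so it could be tested only because it was high there, and with no filter on low counts its adjusted p was 0.0500014, just over the threshold. The median log2 fold change was 0.06 over the 6 EPlTAEG signals and 0.30 over all signals tested.

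**Figure D4:**
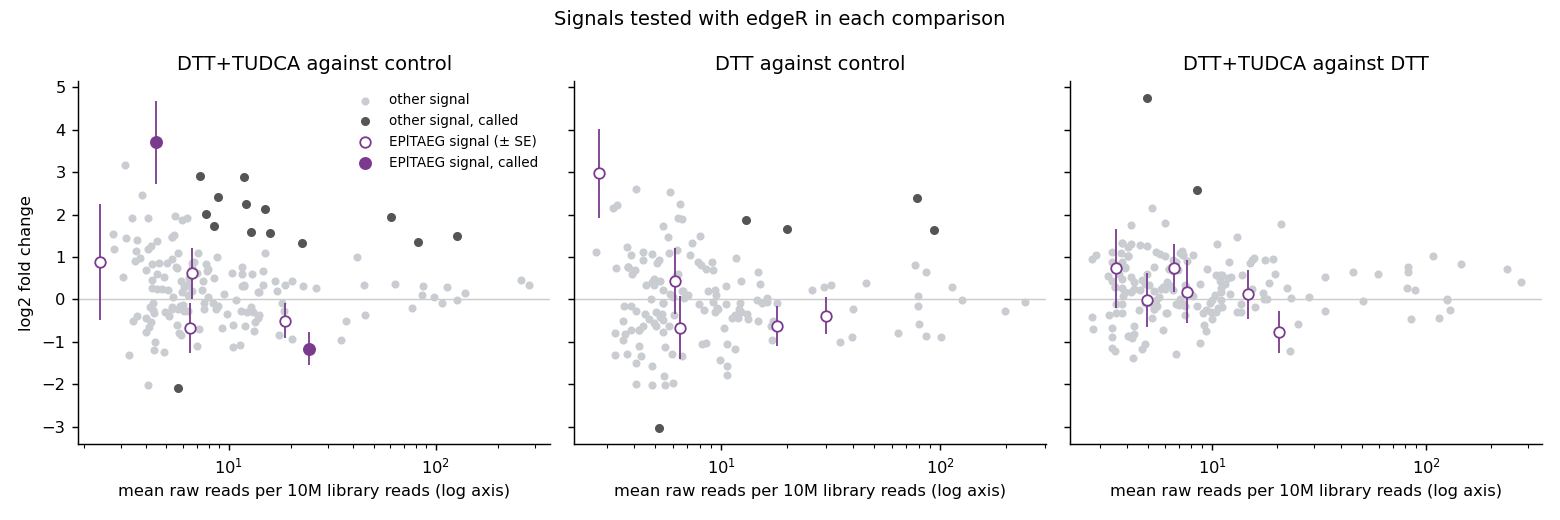
Log2 fold change against mean raw reads per 10M library reads (log axis) for every signal tested in the 3 comparisons; purple points are EPlTAEG signals with their SE, and dark grey and filled purple points passed an adjusted p of 0.05. Filled purple points stand only in the panel of DTT+TUDCA against control, at 3.70 (MIR1135) and -1.16 (MIR2592bj-p3).

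The best line of MIR1135 held 8, 11 and 13 reads in DTT+TUDCA, 7, 5 and 7 in DTT and 1, 1 and 0 in the control. The control lay below both other treatments with no overlap. Per 10M library reads the means were 8.36 ± 2.06 in DTT+TUDCA, 4.99 ± 0.869 in DTT and 0.535 ± 0.463 in the control (SD, n = 3 each). Against the control, DTT+TUDCA was higher by log2 3.70 (SE 0.98, edgeR adjusted p = 0.00585), or 3.39 relative to the median of all signals. With 2 control reads, the ratio of reads was 15.1, with a 95% counting interval of 3.85 to 129.9 that covers counting error only. DTT alone against the control gave log2 2.97 (SE 1.04, edgeR adjusted p = 0.0902), and did not pass, at a ratio of 9.04 (counting interval 2.18 to 80.0). In that comparison the line reached the minimum count in DTT alone, and with no filter its edgeR adjusted p was 0.512.

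A single line holds only part of the reads of MIR1135. Its 20 merged transcripts held between 41 and 53 reads each, with slightly different counts in each library, and all at a ratio of 10, although they number more than 10. Their shared reads summed to whole numbers in each library: 11, 20 and 20 in DTT+TUDCA, 14, 12 and 11 in DTT and 1, 4 and 1 in the control, 94 in all. The best line thus held 53 of 94 reads. In the sum, too, every library of either treatment lay above every control library. Per 10M these sums were 13.3 ± 4.09 in DTT+TUDCA, 9.74 ± 1.30 in DTT and 1.64 ± 1.38 in the control (SD, n = 3 each). On all 20 lines DTT+TUDCA held more reads than DTT, and DTT more than the control, but the 20 lines share their reads and are not separate evidence. In another 35 EPlTAEG transcripts, MIR1135 had 1 to 3 reads per line, which sum to 3, 2.4 and 3.65 shared reads in DTT+TUDCA, 0, 0.5 and 0.667 in DTT and 0.714, 0.667 and 2 in the control.

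The test was therefore repeated on shared reads summed over each signal, an alternative chosen after the data had been seen. MIR1135 was higher in DTT+TUDCA than in the control by log2 2.93 (SE 0.60, edgeR adjusted p = 0.00141), where 17 of 130 signals were called (13.1%), 15 higher (11.5%) and 2 lower (1.54%). In DTT the difference from the control was log2 2.49 (SE 0.81, edgeR adjusted p = 0.0522), where 2 of 117 were called (1.71%), 1 higher (0.855%) and 1 lower (0.855%), and with TMM scaling it passed (adjusted p = 0.0376). MIR1135 could be tested here only through its DTT counts, and with no filter the edgeR adjusted p was 0.499. DTT+TUDCA against DTT gave log2 0.45 (SE 0.47, edgeR adjusted p = 0.770). On the best line, the call in DTT+TUDCA was lost without DTT+TUDCA replicate 3 (adjusted p = 0.120) and by DESeq2 with its own size factors (0.0740). On the shared reads it held without any 1 library, with adjusted p between 0.00425 and 0.0250, and by DESeq2 (0.0103). These refits applied the same filter and share its limit. With no filter, the edgeR adjusted p of MIR1135 in DTT+TUDCA against the control was 0.00248 on shared reads and 0.0500014 on the best line.

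**Figure D5:**
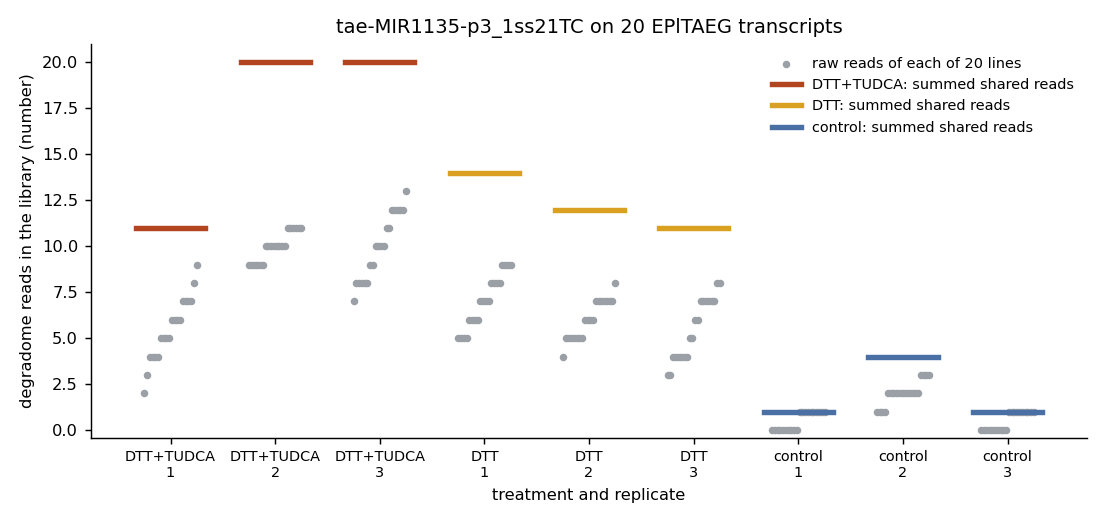
Degradome reads of tae-MIR1135-p3_1ss21TC in each library on 20 EPlTAEG transcripts: grey points are the raw reads of each line and coloured bars the shared reads summed over the 20 lines. The sums reach 11 to 20 in DTT+TUDCA and 11 to 14 in DTT, above the 1 to 4 of the control, and exceed every single line except in control replicates 1 and 3, where they equal the highest lines.

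The MIR2592bj-p3 signal went the other way. It held 18, 17 and 23 reads in DTT+TUDCA, 11, 47 and 41 in DTT and 35, 56 and 32 in the control. DTT+TUDCA lay below the control without overlap, while DTT replicate 1 lay lowest among the 9 libraries and the other DTT libraries lay within the control's range. The means were 15.2 ± 2.80 reads per 10M in DTT+TUDCA, 26.0 ± 15.2 in DTT and 33.9 ± 9.89 in the control (SD, n = 3 each). Against the control, DTT+TUDCA fell by 1.16 on the log2 scale (SE 0.39, edgeR adjusted p = 0.0401), or -1.46 relative to the median of all signals. The call was lost without control replicate 2 (adjusted p = 0.129) or 3 (0.0705) and without DTT+TUDCA replicate 1 (0.0593), 2 (0.194) or 3 (0.108), and held without control replicate 1 (0.0328). It was also lost by DESeq2 with library reads (0.0624), by limma (0.142) and in a fit of all 9 libraries (0.127). On shared reads it passed with all libraries (adjusted p = 0.0405) and was lost without any 1 of them (0.0531 to 0.233). DTT against the control gave log2 -0.38 (SE 0.44, edgeR adjusted p = 0.714).

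The other arm, MIR2592bj-p5, held 28, 8 and 23 reads in DTT+TUDCA, 5, 19 and 30 in DTT and 35, 29 and 16 in the control, with all 3 treatments overlapping. It did not pass in DTT+TUDCA against the control (log2 -0.51, SE 0.41, edgeR adjusted p = 0.521) or in DTT (log2 -0.63, SE 0.48, edgeR adjusted p = 0.549). DTT replicate 1 was the lowest library on this arm too.

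Of the other EPlTAEG signals tested between DTT+TUDCA and the control, that of pab-MIR11451-p3_2ss4CG17AG_2 held 5, 7 and 7 reads in DTT+TUDCA, 8, 7 and 4 in DTT and 11, 10 and 8 in the control. Every control library lay above those of both treatments per 10M reads, yet the difference did not pass (log2 -0.68, SE 0.59, edgeR adjusted p = 0.554). The signal of bdi-miR169h-3p held 18, 5 and 8 reads in DTT+TUDCA, 1, 21 and 5 in DTT and 12, 2 and 5 in the control, which overlap (log2 0.62, SE 0.60, edgeR adjusted p = 0.599). A tae-MIR5175-p3 signal, the last of the 6, gave log2 0.88 (SE 1.38, edgeR adjusted p = 0.751). Among signals too low for this test, tae-MIR1133-p3_2ss10TC21GC had 7, 3 and 7 reads in DTT+TUDCA, 1, 8 and 1 in DTT and 2, 0 and 0 in the control. DTT+TUDCA lay above the control without overlap there, at a ratio of 8.01 (counting interval 1.90 to 71.5). Such a lack of overlap was also found for 22.9% of all signals tested. Summed over its 94 EPlTAEG transcripts, the shared reads of this small RNA were 9.81 ± 1.12 per 10M in DTT+TUDCA and 8.73 ± 3.10 in the control (SD, n = 3 each). That sum did not differ (log2 0.09, SE 0.49, edgeR adjusted p = 0.941).

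DTT was compared with the control to ask which signals differ under the reductant alone. No EPlTAEG signal of the 5 tested passed, with 1, MIR1135, at an unadjusted p below 0.05. Over all 156 signals 5 were called (3.21%), 4 higher (2.56%) and 1 lower (0.641%), and 34 did not overlap (21.8%), among the latter 2 of the 5, MIR1135 and MIR11451. DESeq2 called 0 EPlTAEG signals and limma 1, MIR1135 (log2 2.01, limma adjusted p = 0.0492). The median log2 fold change was -0.38 over the 5 EPlTAEG signals and -0.08 over all. bdi-miR169h-3p stood at log2 0.44 (SE 0.78, edgeR adjusted p = 0.824) and MIR11451 at -0.66 (SE 0.75, edgeR adjusted p = 0.714).

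DTT+TUDCA was compared with DTT to ask what the chaperone changes in the presence of the reductant. None of 6 EPlTAEG signals tested passed with edgeR, DESeq2 or limma, and 0 had an unadjusted p below 0.05 with edgeR. Over all 187 signals 2 were called (1.07%) and 29 did not overlap (15.5%), of which MIR1135 was the EPlTAEG member. MIR1135 stood at log2 0.73 (SE 0.56, edgeR adjusted p = 0.780), MIR2592bj-p3 at -0.78 (SE 0.50, edgeR adjusted p = 0.752) and MIR1133 at 0.73 (SE 0.93, edgeR adjusted p = 0.877). With every listed line tested on its own, 86 of 1043 lines were called in DTT+TUDCA against the control (8.25%). Among them 10 EPlTAEG lines were higher, all of MIR1135, and 9 lower, all of MIR2592bj-p3. The 9 lines hold identical counts. The 10 were those of the 20 merged MIR1135 lines that passed the filter, and these share their reads. The line calls thus repeat 2 signals and are not separate evidence. In DTT against the control 2 of 990 lines were called (0.202%) and in DTT+TUDCA against DTT 1 of 1100 (0.0909%), and none of these was an EPlTAEG line. The comparisons share libraries, so that of DTT+TUDCA with DTT is not independent of the others.

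Shared reads were also summed over all EPlTAEG transcripts of a small RNA, which brings in lines too low to be tested alone. Of the 44 small RNAs 14 could be tested between DTT+TUDCA and the control. Again MIR1135 was higher (log2 2.46, SE 0.56, edgeR adjusted p = 0.000628) and MIR2592bj-p3 lower (log2 -1.17, SE 0.32, edgeR adjusted p = 0.00551), against 46 of 345 sums called over all small RNAs and transcript classes (13.3%), 43 higher (12.5%) and 3 lower (0.87%). The MIR1135 sum was 1.71, 4.67 and 3 in the control libraries, so it too passed the filter only through DTT+TUDCA. The MIR2592bj-p3 sum was not called without control replicate 2 or DTT+TUDCA replicate 2, nor by DESeq2. The small RNAs with the most EPlTAEG transcripts did not pass. The sum of tae-miR1127b-3p_1ss12TC was 14.4 ± 1.60 per 10M in DTT+TUDCA, 9.89 ± 4.87 in DTT and 9.35 ± 4.42 in the control (SD, n = 3 each), with log2 0.61 (SE 0.44, edgeR adjusted p = 0.431) for DTT+TUDCA against the control. That of tae-MIR5175-p3 was 17.7 ± 7.35 in DTT+TUDCA, 12.3 ± 7.71 in DTT and 13.5 ± 5.22 in the control, with an edgeR adjusted p of 0.600 for DTT+TUDCA against the control. That of osa-MIR1862d-p3 was 12.4 ± 2.49 in DTT+TUDCA, 10.8 ± 4.69 in DTT and 15.9 ± 7.41 in the control (edgeR adjusted p = 0.658). tae-MIR1128-p3 and tae-MIR9668-p5_1ss23AG did not pass either (edgeR adjusted p = 0.990 and 0.782). In DTT against the control 0 of 12 EPlTAEG sums passed, where 1 of 337 sums was called (0.297%), with 1 of the 12 at an unadjusted p below 0.05, MIR1135 (log2 1.82, SE 0.75, edgeR adjusted p = 0.193). In DTT+TUDCA against DTT 0 of 13 passed, where 0 of 325 were called (0%), and 0 of the 13 had an unadjusted p below 0.05. DESeq2 with library reads also called 0 of these sums in both comparisons.

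The miR1117 to miR1139 list as a whole had 68.6 ± 8.25 shared reads per 10M on EPlTAEG transcripts in DTT+TUDCA, 51.9 ± 12.3 in DTT and 43.4 ± 11.9 in the control (SD, n = 3 each). By library the values were 63.5, 78.1 and 64.2 in DTT+TUDCA, 66.1, 44.9 and 44.6 in DTT and 43.5, 55.2 and 31.5 in the control. Every DTT+TUDCA library lay above every control library, and DTT overlapped both. The same held for the reads of all signals, unscaled, at 6502, 7430 and 7363 in DTT+TUDCA and 5091, 5863 and 5130 in the control. Of the single small RNA sums tested between these treatments, 79 of 345 did not overlap (22.9%). The separation is thus not particular to this list. Without miR1135, which gave 107.6 of the list's 618.8 shared reads, the means were 53.0 ± 7.78 in DTT+TUDCA, 41.8 ± 11.4 in DTT and 40.8 ± 11.4 in the control, and the DTT+TUDCA libraries, from 45.4 to 60.9, then overlapped those of the control, from 28.8 to 51.4.

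Total raw reads of the EPlTAEG signals overlapped between the treatments. They held 195.2, 178.4 and 205.7 reads per 10M library reads in DTT+TUDCA, 164.3, 193.2 and 179.9 in DTT and 173.7, 233.7 and 168.8 in the control. The means were 193.1 ± 13.8 in DTT+TUDCA, 179.1 ± 14.5 in DTT and 192.1 ± 36.1 in the control (SD, n = 3 each). Two-sided exact permutation p was 1.0 for DTT+TUDCA against the control, 0.8 for DTT against the control and 0.3 for DTT+TUDCA against DTT, where 0.1 is the smallest that 3 against 3 libraries allow, so that no total could pass 0.05. Other ways of counting separated DTT+TUDCA from DTT. Total shared reads on EPlTAEG transcripts were 145.3, 162.0 and 163.5 per 10M in DTT+TUDCA, 136.6, 144.7 and 132.3 in DTT and 136.0, 187.8 and 128.9 in the control. Every DTT+TUDCA library lay above every DTT library (exact permutation p = 0.1), and the control overlapped both. With lines merged at 5%, under which near-copies of a signal count apart, DTT+TUDCA was higher by 63.9 reads per 10M than DTT (exact permutation p = 0.1) and by 110.9 than the control (exact permutation p = 0.2). Without MIR1135 and MIR2592bj, total shared reads were 118.3 ± 10.5 per 10M in DTT+TUDCA, 96.0 ± 17.5 in DTT and 104.6 ± 21.2 in the control (SD, n = 3 each), with an exact permutation p of 0.2 for DTT+TUDCA against DTT. The number of EPlTAEG signals with a read was 107, 117 and 108 in DTT+TUDCA, 114, 85 and 83 in DTT and 85, 105 and 84 in the control. Every DTT+TUDCA library lay above every control library in these numbers, which were not scaled to reads (exact permutation p = 0.1). DTT was spread over the whole range (exact permutation p = 0.9 against the control). DTT+TUDCA against DTT had an exact permutation p of 0.3. Relative to the reads of the EPlTAEG signals in each library, the number of signals overlapped between DTT+TUDCA and the control (exact permutation p = 0.3). The number of EPlTAEG transcripts with a read was 277, 306 and 327 in DTT+TUDCA, 295, 223 and 182 in DTT and 284, 279 and 208 in the control (exact permutation p = 0.3, 0.7 and 0.2 for DTT+TUDCA against control, DTT against control and DTT+TUDCA against DTT). DTT replicate 3 had the fewest EPlTAEG transcripts and signals of all libraries.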

How the data were processed

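Degradome libraries of wheat leaves were compared in 9 libraries, 3 per treatment, and the p-values measure the spread between them. The authors deposited 3 tables, 1 per pair of treatments. Per the file headers, these hold raw degradome read counts, a normalized read number and TPB for each library. The deposited normalized number is treated as an expected count, raw reads divided by a whole number in nearly all values, and it was rounded to whole reads after summing where it was tested. The deposited signal, TPB, equals that number times 1 factor per library, from which library reads of 11253643 to 13006162 were recovered. The headers do not say whether these are raw, filtered or mapped reads. For the read mapper, transcript set and target caller, nothing is given in the sources used here. About 20 µg of total RNA gave each library, 36 nt were read per insert, and no molecular identifiers are mentioned in the labels.

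Pairs were read from the tables, 3 pairs listed more than once were left out, and no per-sample column was left unused. Lines of 1 small RNA, or of 1 transcript, were linked where their summed count differences came to 20% or less of the larger line. Lines joined by a chain of such links form a signal, so 2 lines of a signal can differ by more, as in that of MIR1135. The line with the highest total stands for the signal. That 20% replaced 5% after calls had been seen in earlier work on these tables. Signals that passed edgeR's expression filter (minimum count 5, minimum total 10) were tested with edgeR 4.0.16 in R 4.3.3 (quasi-likelihood, library reads as library sizes, the 2 treatments compared). This test reports no SE. The SE printed with an edgeR log2 fold change is its absolute value divided by the square root of the test's F statistic. Alternatives used TMM, DESeq2 1.42.0 and limma 3.58.1 on log2(reads per 10M + 1). Totals were compared by exact permutation tests. The named signals are those called, the 10 with the most reads, the 5 with the lowest p in each comparison and the 3 with the highest and lowest ratio at 10 or more reads (ties by reads). Also named are the 3 transcripts with the most small RNAs and the 5 small RNAs with the most transcripts. The members, the small RNA lists and the tests were chosen with earlier results of these data known.

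The labels have 1 sample entry per treatment, and the 3 libraries of each were taken from the column names.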

Additional observations from a re-analysis of the deposited data

How the results depend on the processing

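Most EPlTAEG signals were too low to be tested, and counts of calls moved with the processing; causes were not tested. In DTT+TUDCA against the control, the 16 signals called in all became 8 by DESeq2 with library reads, 10 by DESeq2 with its own size factors, 9 by limma, 9 with no filter, 29 merged at 5%, 86 over every listed line, 50 with 1 line per transcript, 9 in 1 fit of all 9 libraries and 8 to 24 without 1 replicate. The 1 EPlTAEG signal called higher became 0 by DESeq2 with either scaling (NA with library reads, 0.0740 with its own size factors for MIR1135), 0 with no filter, 10 merged at 5%, over every listed line or with 1 line per transcript, and 0 to 1 without 1 replicate. The 1 called lower became 0 by DESeq2 with library reads, by limma, with no filter and in 1 fit of all 9 libraries. It became 9 over every listed line or with 1 line per transcript, and 0 to 1 without 1 replicate. The 9 lines called lower hold identical counts. On shared reads, the 1 called lower became 0 by DESeq2, with no filter and without any 1 replicate (0 to 0). Among sums per small RNA, it became 0 by DESeq2 and with no filter, and 0 to 1 without 1 replicate. In DTT against the control, the 5 called in all became 3 with TMM, 2 and 3 by DESeq2, 1 with no filter, 2 over every listed line, 1 with 1 line per transcript and 0 to 5 without 1 replicate; the 0 EPlTAEG signals called higher became 1 by limma and 2 merged at 5%, and 1 on shared reads with TMM. In DTT+TUDCA against DTT, the 2 called in all became 1 with TMM, 1 and 0 by DESeq2, 1 by limma, 1 with no filter, 1 over every listed line and 0 to 1 without 1 replicate. The difference in total EPlTAEG reads per 10M turned its sign in DTT against the control merged at 5% (47.0, against -12.9) and over -24.6 to 7.87 without 1 replicate; in DTT+TUDCA against the control (0.999) as a share of all signal reads (-0.815 percentage points), with 1 line per transcript (-44.0) and over -10.6 to 21.8 without 1 replicate; and in DTT+TUDCA against DTT (13.9) as a share (-0.428 points). The difference in signals with reads, DTT against the control (2.67), ranged from -7.33 to 9.5 without 1 replicate. With 3 against 3 libraries, no total could pass a test at 0.05, so these p-values say nothing on whether totals differ. Among log2 fold changes that did not pass, MIR2592bj-p3 in DTT against the control ranged from -0.74 to 0.032 without 1 replicate, and MIR11451 stood at 0.14 as a small RNA sum. bdi-miR169h-3p ranged from -1.12 to 1.22 in DTT against the control and from -0.035 to 1.41 in DTT+TUDCA against the control. In DTT+TUDCA against DTT, it was -0.10 with TMM, -0.17 by DESeq2 with its own size factors and -0.48 to 1.74 without 1 replicate; MIR2592bj-p5 was -0.29, -0.41 and -0.32 to 0.68 under the same settings; MIR11451 was 0.017 by limma and -0.26 to 0.19 without 1 replicate. Of 281 alternatives for single signals, 248 kept direction and side of the threshold, 19 turned direction, 13 lost the call and 1 gained it. The ratio difference between EPlTAEG and Traes stayed above 0 in 9 of 9 libraries under every alternative run (0.48 to 1.33). Replicate numbers are shared by the treatments. Same-numbered libraries deviated from their treatment means with correlations of -0.22 to 0.12 over 9 pairs, against -0.17 to 0.18 over 18 pairs of unlike numbers. With so few libraries this check cannot exclude pairing, and the main tests treated libraries as unpaired. With the replicate number as a block, signals called in all were 18 in DTT+TUDCA against the control, 1 in DTT against the control and 1 in DTT+TUDCA against DTT; MIR1135 (adjusted p = 0.0168) and MIR2592bj-p3 (0.0425) stayed called in the first, and MIR11451 in the last was 0.011.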
